A study of Mus musculus with 10 samples.

Results

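The unfolded protein response and the integrated stress response were followed through 34 genes in left ventricular tissue of mice. The genes were chosen by name as sensors, transcription factors, chaperones and targets of these pathways, with earlier results of these data known. All 34 were found in the count table of 55385 genes, on 35 rows, because Ddit3 stands there as 2 overlapping gene models. The second Ddit3 model, which had at most 16 counts in a library, did not pass the filter on low counts, and the other 34 rows were tested.

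The HFpEF group had 5 libraries from mice labelled C56Bl6 that had received high-fat feeding together with L-NAME, which blocks nitric oxide synthesis, over 6 weeks. The Control group had 5 libraries from C56Bl6 mice on a standard diet for the same length of time. The combination is used to model heart failure with preserved ejection fraction (HFpEF), a syndrome in which the ventricle empties normally but fills poorly. No genetic change was labelled in either group, and nothing in the labels ties a library to its own animal, so that the p-values reflect library-to-library spread, which may be partly technical. The age and sex of the animals are not given in the sources used here.

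When unfolded proteins build up in the endoplasmic reticulum (ER), the chaperone BiP leaves the membrane sensors IRE1, ATF6 and PERK. IRE1 cuts Xbp1 mRNA so that it encodes an active transcription factor, ATF6 is carried to the Golgi and cleaved into one, and PERK phosphorylates the translation factor eIF2alpha, which slows translation in general while ATF4 protein is made. GCN2 phosphorylates the same factor when amino acids are scarce, which is why the ATF4 arm is called the integrated stress response. In cardiac muscle these pathways look after the sarcoplasmic reticulum and secreted proteins, and in mice the cleaved form of ATF6 has been found protective in the ischaemic heart. Each gene was placed in the XBP1, ATF6 or ATF4 branch by its best known regulator. The division is a simplification, since many ER chaperone genes answer to both XBP1 and ATF6.

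Control elements linked to these pathways can be read in the mouse sequence, and they are shown to let a reader see which genes share an element. They were not used to place genes in branches. Atf6, Hyou1, Manf and Ppp1r15b had no window. The ER stress response element (ERSE), to which NF-Y binds on the left and ATF6 or XBP1 on the right, was searched as CCAAT, then 9 bases of any kind, then CCACG, on both strands of RefSeq promoter windows (GRCm38.p6, 250 bases before to 50 after the start site). It occurred in 8 of the 30 genes with a window, against 0.119% of 32851 mouse windows of that length. Of these 8, 6 were among the 12 ATF6 branch genes with a window, 2 among the 7 of the XBP1 branch and 0 among the 10 of the ATF4 branch. The genes were chosen as sensors and targets of these pathways, so the contrast with all windows is a description and not a test. The matches follow, read 5′ to 3′ in the direction of the element, with the fixed letters in capitals and the position, from the start site, of the end of the element that lies farthest upstream in the gene.
Canx, at -145: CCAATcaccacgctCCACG
Hspa5, at -65: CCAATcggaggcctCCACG
Hsp90b1, at -107, opposite strand: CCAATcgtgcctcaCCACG
Hsp90b1, at -212: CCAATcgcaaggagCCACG
Calr, at -162, opposite strand: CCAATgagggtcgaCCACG
Pdia6, at -98: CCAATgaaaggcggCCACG
Creld2, at -126, opposite strand: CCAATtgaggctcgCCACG
Dnajc3, at -105: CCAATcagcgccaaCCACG
Syvn1, at -44: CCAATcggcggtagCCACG

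The related element ERSE-II, ATTGG and CCACG with 1 base of any kind between them, occurred in Herpud1 at -52 and in Dnajb11 at 8 bases past the start site, against 0.0365% of all windows. It shares its CCACG letters with the ERSE, and no window of these genes held both elements. The XBP1-preferred element TGACGTGG was in 0 of the 30 genes and in 0.676% of all windows. The amino acid response element, searched as TGATGNAAN, was in 4 genes (Asns, Chac1, Trib3 and Herpud1) and in 3.95% of all windows. The cyclic AMP element TGACGTCA was in Ppp1r15a alone and in 1.79% of all windows. The 250 bases before the start site are given for Canx, which rose, and for Hspa5, which did not pass the test. Exact matches to the ERSE are in capitals, and near matches are not marked. The positions are chr11:50325674-50325923, minus strand, for Canx and chr2:34771840-34772089, plus strand, for Hspa5. For Hspa5 the RefSeq start site lies downstream of the GENCODE M21 gene start at 34771970. Part of the printed Hspa5 bases, the marked ERSE included, therefore lies inside the gene position given below.
Canx: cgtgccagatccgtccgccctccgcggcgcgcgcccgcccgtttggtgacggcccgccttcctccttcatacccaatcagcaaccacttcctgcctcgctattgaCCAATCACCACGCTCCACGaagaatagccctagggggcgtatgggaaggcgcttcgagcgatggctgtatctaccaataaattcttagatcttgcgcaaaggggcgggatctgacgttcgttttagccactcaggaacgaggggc
Hspa5: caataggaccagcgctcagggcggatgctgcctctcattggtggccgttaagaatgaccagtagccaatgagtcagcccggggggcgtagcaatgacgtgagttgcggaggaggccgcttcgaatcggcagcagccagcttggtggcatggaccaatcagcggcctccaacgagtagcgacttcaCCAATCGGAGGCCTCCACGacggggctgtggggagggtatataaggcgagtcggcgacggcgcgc

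Library totals ran from 31286355 to 33604554 counts in HFpEF and from 31555001 to 46108710 in Control (two-sided exact permutation p = 0.222). Mitochondrially encoded RNA made up 37.6% ± 0.897 of counts in HFpEF and 35.7% ± 1.7 in Control (SD, n = 5 each; exact permutation test, two-sided p = 0.0635). Levels are in CPM, counts set relative to the library total and scaled with TMM factors, differences are log2 fold changes of HFpEF over Control with their standard error (SE), and a gene was called at an adjusted p below 0.05 over the 18491 genes tested. The 7 cardiomyocyte markers, all tested, were abundant, as the labelled tissue requires, at a summed 25100 to 27200 CPM in HFpEF and 25800 to 27600 CPM in Control. Adipocyte markers (0 of 4 tested) and skeletal muscle markers (0 of 6 tested) summed to less than 1 CPM in every library. Control 5 had the highest total and was the highest Control library for 19 of the 34 genes, so values without it are given where they bear on a call.

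Most of the stress genes differed little between the groups, and the firmest difference was a rise of the sensor gene Atf6. In all, 2 of the 34 rose, Atf6 and Canx, both in the ATF6 branch, and 0 fell. That is 5.88% of the genes, against 5.33% of all genes tested (3.24% higher and 2.09% lower), so the count stood at the background. The XBP1 branch had 0 calls among 7, the ATF4 branch 0 among 11, and the ubiquitin ligase gene Stub1 was not called. At an unadjusted p below 0.05 there were 4 genes (Atf6, Canx, Herpud1 and Sesn2), or 11.8%, against 20.5% of all genes tested. With TMM scaling the estimates were above 0 for 26 of the 34 genes against 47.2% of all genes tested, with a median of 0.05 on the log2 scale against -0.01 over all genes. Under RLE scaling 26 of the 34 were above 0 against 48.7% of all genes, and under upper quartile scaling 24 against 43.8%. The direction does depend on whether scaling factors are used. With library totals alone, a fit added after seeing the data, 11 of the 34 were above 0 against 24.1% of all genes. The median of the 34 was then -0.05 and that of all genes -0.11. In that fit 246 genes were higher and 1277 lower over the whole table, against 599 higher and 386 lower with TMM. Atf6 was still called there (0.24, adjusted p = 0.00579), Canx was not (0.10, adjusted p = 0.325), and Sesn2 was called lower (-0.53, adjusted p = 0.0456). With TMM, for 20 of the 34 genes, or 58.8%, the whole 95% interval lay within 1.2-fold either way, against 34% of all genes tested. Scarce genes have wider intervals, and a stricter filter at 1 CPM kept 33 of the 34 and 14898 genes in all. The part of count level in this contrast was not tested. In bulk tissue, fewer cells of a type and less RNA per cell cannot be told apart.

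**Figure D1:**
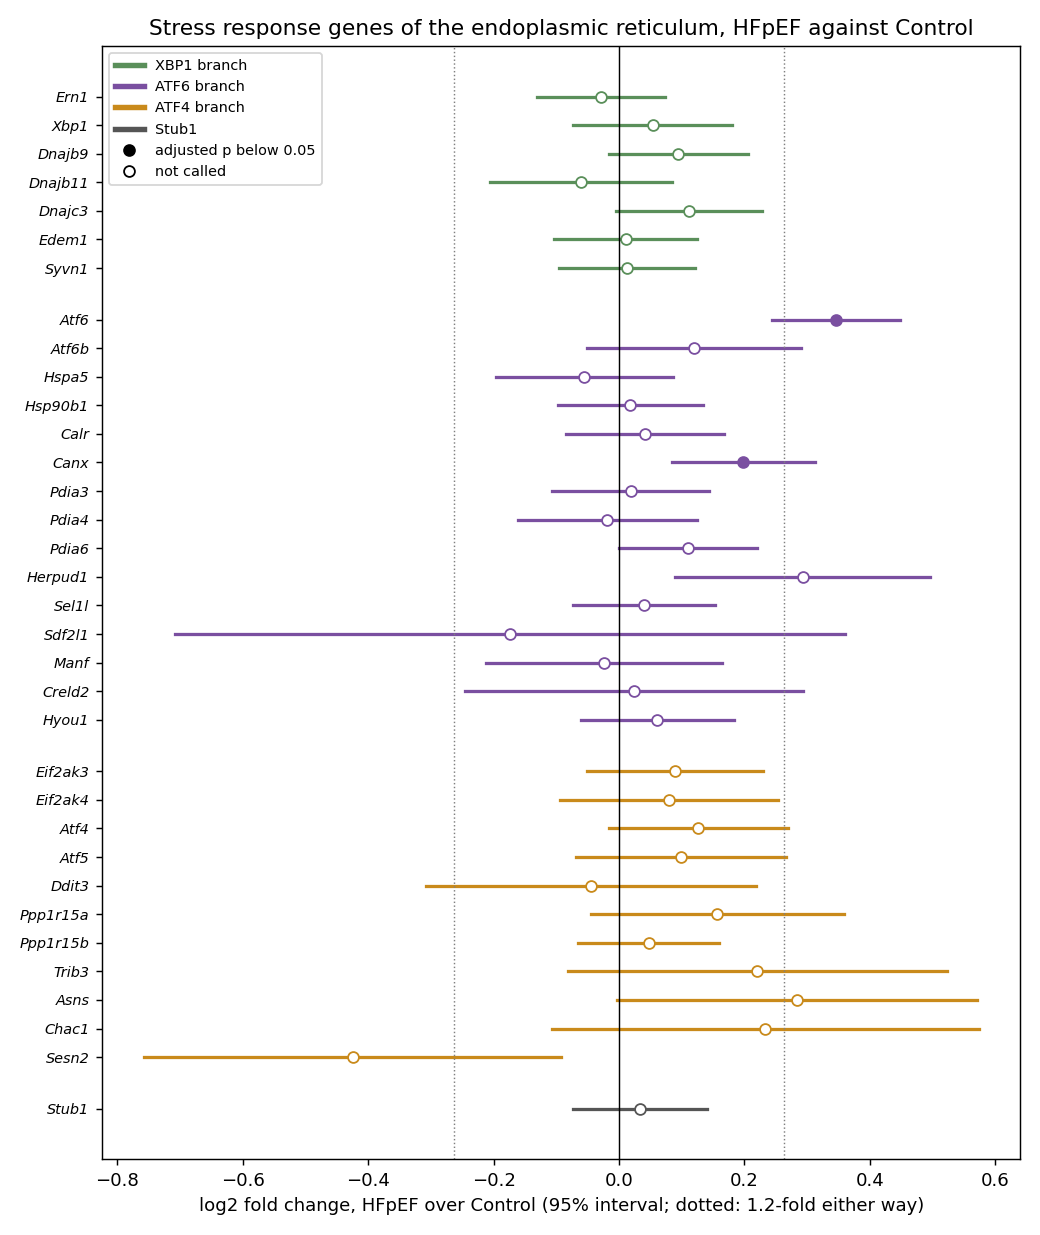
Log2 fold change of HFpEF over Control for the 34 tested genes, in rows by branch; points are the estimates, lines their 95% intervals, filled points have an adjusted p below 0.05 and dotted lines mark 1.2-fold. The filled points are Atf6 (0.35) and Canx (0.20), while the other 13 genes of the ATF6 branch and all 7 of the XBP1 branch have open points.

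In the XBP1 branch the sensor, the factor and the targets all had intervals close to no difference. Xbp1 (chr11:5520659-5525893, plus strand), which encodes the factor, was at 31.8, 37.8, 31.6, 33.5 and 31.6 CPM in HFpEF libraries 1 to 5, against 30.1, 31.3, 31.9, 31.6 and 35.2 CPM in Control libraries 1 to 5. The groups overlapped, with HFpEF 2 the highest and Control 1 the lowest of the 10. The log2 fold change was 0.05 ± 0.06 (SE, n = 5 each; adjusted p = 0.67), with a 95% interval of the ratio from 0.95 to 1.13. Ern1, which encodes IRE1 alpha, the kinase and nuclease that cuts Xbp1 mRNA, was at 18, 18.6, 19.3, 18.7 and 18.8 CPM in HFpEF, against 18.2, 19.7, 19.9, 19 and 18.5 CPM in Control. It was the steadiest gene of the set in HFpEF, with a coefficient of variation of 2.44%, and its difference was -0.03 ± 0.05 (adjusted p = 0.796).

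Counts of the Xbp1 gene say nothing on how much of its mRNA was spliced, because IRE1 removes only 26 bases. The site was found as a pair of CNGCNG loops at that spacing in the 3 coding Xbp1 transcripts of GENCODE M21. It is shown with 12 bases on either side, the removed bases in capitals.
Xbp1, bases 815 to 840 of transcript Xbp1-201 removed: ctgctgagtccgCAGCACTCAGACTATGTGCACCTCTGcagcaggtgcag
None of the 4 Xbp1 transcripts annotated in GENCODE M21 (0 of 4) holds the joined form. The counts give 1 value per gene, so the active and inactive messages cannot be told apart. How reads across the join were counted is not known. Activity of the branch could be read only through its target genes.

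The target genes of XBP1 gave 0 calls. Dnajb9 (ERdj4), a J-domain co-chaperone of BiP often used as a readout of spliced XBP1, was at 25, 26.7, 29.2, 25.9 and 26.7 CPM in HFpEF, against 24, 26.7, 24.2, 24.7 and 25.4 CPM in Control. The groups overlapped and the difference was 0.10 ± 0.05 on the log2 scale (adjusted p = 0.324; 95% interval of the ratio 0.989 to 1.15). Dnajc3 (p58IPK), a co-chaperone that also restrains PERK, had the branch's smallest p, at 35 ± 2 CPM in HFpEF and 32.4 ± 2.04 CPM in Control (SD, n = 5 each; 0.11 ± 0.06, adjusted p = 0.266). The mannosidase-like Edem1 (0.01 ± 0.05) and the ubiquitin ligase Syvn1 (0.01 ± 0.05), both of ER-associated degradation, and the co-chaperone Dnajb11 (-0.06 ± 0.07) had adjusted p values of 0.672 or more. All 7 genes of the branch had intervals within 1.2-fold. Those of Dnajc3 and Syvn1, which carry the ERSE shown above, ran from -0.01 to 0.23 and from -0.10 to 0.12 on the log2 scale.

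In the ATF6 branch the sensor gene and the lectin chaperone calnexin rose while the main soluble chaperones did not pass the test. Atf6 (chr1:170704674-170867771, minus strand), the membrane-bound factor itself, was at 112, 117, 127, 119 and 114 CPM in HFpEF, against 92.4, 95, 96.4, 92.1 and 87.9 CPM in Control. Every HFpEF library lay above every Control library. Groups separated this way, with HFpEF above, for 3.88% of all genes tested. The level was 118 ± 6.08 CPM in HFpEF and 92.8 ± 3.24 CPM in Control (SD, n = 5 each), a log2 fold change of 0.35 ± 0.05 (SE; adjusted p = 0.000684) or a ratio of 1.27 with a 95% interval from 1.18 to 1.36. It was called in each of the 10 fits without 1 library and in all other fits tried, with adjusted p values up to 0.00698. No other annotated gene overlaps its exons. Its paralog Atf6b, whose product also answers to ER stress, was at 9.18 ± 0.86 CPM in HFpEF and 8.46 ± 0.67 CPM in Control (0.12 ± 0.08, adjusted p = 0.432), and whether the differences of the paralogs differ from each other was not tested.

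Canx (chr11:50293961-50325673, minus strand) encodes calnexin, which holds newly made glycoproteins in the ER membrane until they fold. It was at 222, 216, 232, 225 and 205 CPM in HFpEF, against 189, 203, 174, 191 and 202 CPM in Control. The groups did not overlap, though HFpEF 5 lay only just above Control 2. The log2 fold change was 0.20 ± 0.05 (adjusted p = 0.042), a ratio of 1.15 with a 95% interval from 1.06 to 1.24. This call was kept in 3 of the 10 fits without 1 library, those without HFpEF 5, Control 2 or Control 5. It ended without each of the other 7, with the highest adjusted p, 0.11, without HFpEF 3. The estimate in those 10 fits stayed between 0.17 and 0.23, and it was 0.10 with library totals alone.

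Herpud1 (chr8:94386438-94395377, plus strand), a membrane protein of ER-associated degradation and one of the genes with an ERSE-II, was at 101, 106, 128, 142 and 130 CPM in HFpEF, against 91.8, 97.9, 104, 113 and 88.8 CPM in Control. HFpEF 3, 4 and 5 lay above all Control libraries and HFpEF 1 and 2 among them. The log2 fold change was 0.29 ± 0.09 (adjusted p = 0.0935), so it was not called, but it was called without HFpEF 1 (0.35, adjusted p = 0.0294) and by DESeq2 (0.30, adjusted p = 0.0303). Among ER-associated degradation genes outside the 34, its paralog Herpud2 rose by 0.17 ± 0.05 (30.3 ± 0.66 CPM in HFpEF and 26.9 ± 1.25 CPM in Control, SD, n = 5 each; adjusted p = 0.0422), a call kept in 3 of the 10 fits without 1 library (adjusted p up to 0.108). It was the call among the 16 tested genes of that list, whose median was 0.05.

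The ER chaperones most used to read an unfolded protein response did not pass the test. Hspa5 (chr2:34771970-34777547, plus strand), which encodes BiP, was at 151, 157, 159, 163 and 141 CPM in HFpEF, against 147, 175, 157, 143 and 179 CPM in Control. All HFpEF values but that of HFpEF 5 fell inside the Control range, and Control 2 and Control 5 were the highest of the 10. The difference was -0.06 ± 0.07 (adjusted p = 0.699), with a 95% interval of the ratio from 0.873 to 1.06. Hsp90b1 (GRP94), the ER member of the Hsp90 family, was at 161, 184, 174, 179 and 157 CPM in HFpEF, against 159, 172, 172, 163 and 178 CPM in Control. Its interval of the ratio ran from 0.935 to 1.1 (0.02 ± 0.05, adjusted p = 0.894). Other genes cover 10.3% of the exonic bases of Hsp90b1 on the opposite strand and 5.38% on the same strand. Calr, the soluble partner of calnexin and a store of ER calcium, was at 101, 116, 111, 111 and 102 CPM in HFpEF, against 99, 101, 108, 100 and 118 CPM in Control (0.04 ± 0.06, adjusted p = 0.752). Of the 8 genes with an ERSE match, Hspa5, Hsp90b1 and Calr among them, Canx alone was called. Whether the difference of Canx departs from those of the other genes with a match was not tested.

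The remaining genes of the branch gave 0 calls. The disulfide isomerases Pdia3 (0.02 ± 0.06), Pdia4 (-0.02 ± 0.07) and Pdia6 (0.11 ± 0.05) had adjusted p values from 0.244 to 0.912. Pdia6, the closest of them to a call, was at 26.3 ± 1.24 CPM in HFpEF and 24.4 ± 1.23 CPM in Control (SD, n = 5 each). The BiP exchange factor Hyou1 (0.06 ± 0.06), the degradation adaptor Sel1l (0.04 ± 0.05), the secreted stress protein Manf (-0.02 ± 0.09) and Creld2 (0.02 ± 0.13), an ER stress-inducible protein, likewise did not pass the test. Sdf2l1, a partner of ER co-chaperones, was scarce, at 0.533 to 1.28 CPM in HFpEF and 0.632 to 1.16 CPM in Control, and its interval from -0.71 to 0.36 on the log2 scale leaves the size of any difference undetermined. HFpEF 2 was the highest HFpEF library for 8 of the 15 genes, and HFpEF 1 and HFpEF 5 were the lowest for 7 each. In Control, Control 5 was the highest for 9 of the 15.

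**Figure D2:**
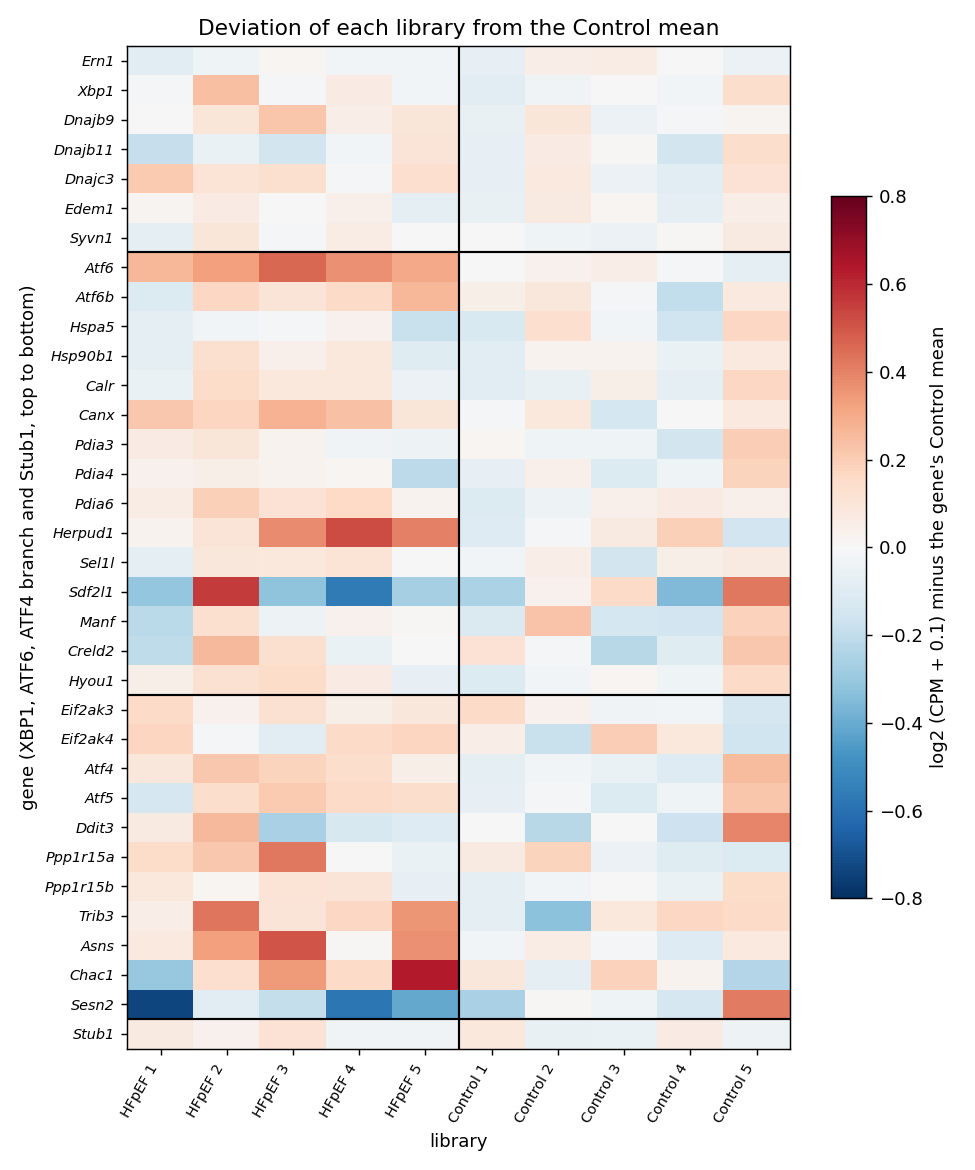
Deviation of each library (columns, HFpEF left of the line, Control right) from a gene's Control mean, on the log2 (CPM + 0.1) scale, for the 34 genes in rows with lines between branches. The Atf6 row is red in all 5 HFpEF libraries, the Herpud1 row in HFpEF 3, 4 and 5, and the Sesn2 row is blue in HFpEF, palest in HFpEF 2, while the Control 5 column is red for most genes.

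The ATF4 branch had 0 calls among 11 genes, with a median of 0.10 on the log2 scale under TMM. Atf4 (chr15:80255184-80257541, plus strand), the factor itself, was at 26.7, 29.2, 28.4, 27.6 and 25.9 CPM in HFpEF, against 23.8, 24.7, 24.2, 23.4 and 30 CPM in Control. The 5 HFpEF libraries lay above Control 1 to 4 and below Control 5. With all libraries the difference was 0.13 ± 0.07 (adjusted p = 0.308), and without Control 5 it was 0.21 and was called (adjusted p = 0.0344). ATF4 is set largely by translation, which counts of its mRNA do not show. Atf5, a related factor controlled the same way, was at 9.95, 12, 12.7, 12.1 and 12.1 CPM in HFpEF, against 10.4, 10.8, 10.1, 10.7 and 12.7 CPM in Control (0.10 ± 0.08, adjusted p = 0.522), again with Control 5 the highest of its group.

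The kinases that feed the branch did not pass the test. Eif2ak3, which encodes PERK, was at 9.34 ± 0.329 CPM in HFpEF and 8.8 ± 0.646 CPM in Control (SD, n = 5 each; 0.09 ± 0.07, adjusted p = 0.481). Eif2ak4, which encodes GCN2, was at 12.7 ± 1.04 CPM in HFpEF and 12 ± 1.35 CPM in Control (0.08 ± 0.08, adjusted p = 0.636). The eIF2alpha phosphatase subunits were Ppp1r15a (GADD34), the stress-induced one, at 0.16 ± 0.10 on the log2 scale (adjusted p = 0.379), and Ppp1r15b, the constitutive one, at 0.05 ± 0.05 (adjusted p = 0.671). Genes on the opposite strand cover 11.4% of the exonic bases of Ppp1r15b, 8.85% of Manf, 8.23% of Atf5 and 8.05% of Eif2ak3.

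Among the targets of ATF4, Ddit3, which encodes CHOP, a factor tied to death of stressed cells, was at 8.36, 9.54, 6.62, 7.26 and 7.39 CPM in HFpEF, against 7.94, 6.81, 7.92, 7.09 and 10.5 CPM in Control. The groups overlapped over most of their range, and the difference was -0.04 ± 0.12 (adjusted p = 0.887; interval from -0.31 to 0.22 on the log2 scale). Its sign turned without Control 5 (0.08, adjusted p = 0.693) and without HFpEF 3 (0.01, adjusted p = 0.981). Asns, asparagine synthetase, was at 1.47, 1.78, 2.01, 1.4 and 1.82 CPM in HFpEF, against 1.37, 1.45, 1.38, 1.29 and 1.47 CPM in Control. HFpEF 2, 3 and 5 stood above every Control library, and the difference was 0.28 ± 0.14 (adjusted p = 0.25). Chac1, which degrades glutathione, had 0.23 ± 0.16 and the pseudokinase Trib3 0.22 ± 0.14 (adjusted p = 0.443 and 0.411). Asns, Chac1 and Trib3 are the branch genes in which the amino acid response element was found in the promoter window. Bases outside the window were not searched, and Ppp1r15b had no window.

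Sesn2, a stress-induced restraint on the growth kinase mTORC1 that also answers to p53, had the lowest estimate of the set. It was at 1.66, 2.65, 2.47, 1.87 and 2.1 CPM in HFpEF, against 2.35, 2.84, 2.77, 2.57 and 3.8 CPM in Control. HFpEF 1, 4 and 5 lay below all Control libraries. The difference was -0.42 ± 0.16 and was not called (adjusted p = 0.132), and without Control 5 it was -0.28 (adjusted p = 0.291). With library totals in place of TMM it was called, as given above. Sesn2, Asns, Trib3 and Chac1, all scarce, had intervals that reach past 1.2-fold. In all, 3 of the 11 genes of this branch had intervals within 1.2-fold, against 9 of 15 in the ATF6 branch and 7 of 7 in the XBP1 branch.

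**Figure D3:**
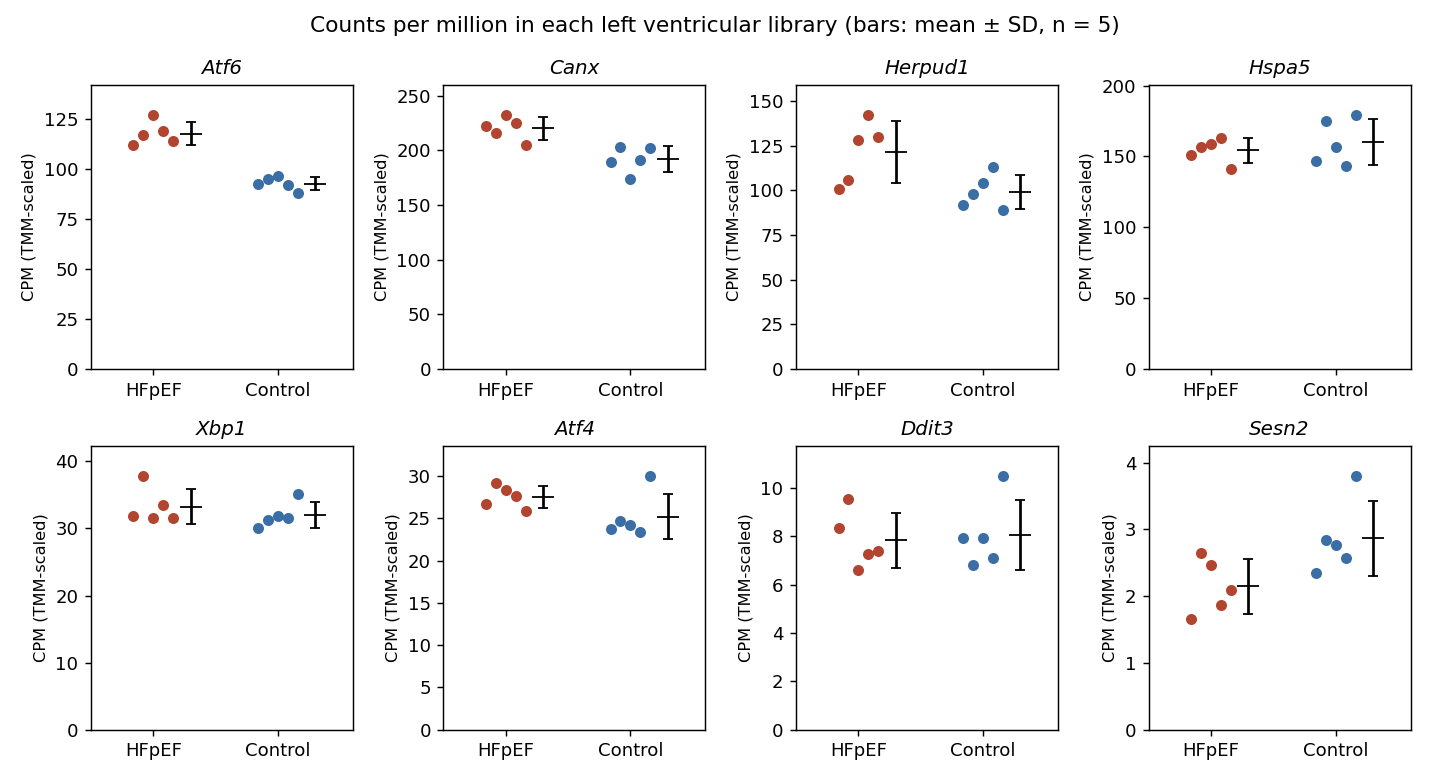
CPM of 8 stress genes in each library, HFpEF left and Control right in each panel, with mean ± SD (n = 5 each) beside the points and axes from 0. Atf6 and Canx are the panels in which the groups do not overlap, and in the Atf4, Ddit3 and Sesn2 panels the highest Control point is Control 5.

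Stub1 (chr17:25830505-25833404, minus strand) encodes CHIP, a co-chaperone and ubiquitin ligase of the cytosol. In mice it has been linked to turnover of FoxO1, the transcription factor named in the title of the series, downstream of spliced XBP1. It was at 28.6, 27.9, 29.5, 26.7 and 26.6 CPM in HFpEF, against 28.9, 26.1, 26.2, 28.5 and 26.4 CPM in Control. The groups overlapped and the difference was 0.03 ± 0.05 (adjusted p = 0.765), with a 95% interval of the ratio from 0.95 to 1.1. Exons of Jmjd8 on the opposite strand cover 42.3% of the exonic bases of Stub1, and since it is not stated whether the counting used strand, its value is less certain. Foxo1 mRNA was at 30.4 ± 1.29 CPM in HFpEF and 30.7 ± 1.02 CPM in Control (SD, n = 5 each; -0.02 ± 0.05, adjusted p = 0.893). Of the 4 FoxO genes Foxo4 alone was called (higher, 23.9 ± 1.18 CPM in HFpEF and 19.9 ± 1.7 CPM in Control, 0.27 ± 0.06, adjusted p = 0.021), in 7 of the 10 fits without 1 library.

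On a scale of counts per exonic length (TPM, where all genes of a library share a fixed total), averaged over all 10 libraries, the genes ran from 0.849 to 70.9 TPM. This scale carries no TMM factor: on it the HFpEF mean was above the Control mean for 10 of the 34 genes and for 22.5% of all genes tested, Atf6 was at 18.5 ± 0.617 TPM in HFpEF and 15.8 ± 0.443 TPM in Control, and Canx at 68.1 ± 4.31 TPM in HFpEF and 64.2 ± 6.5 TPM in Control (SD, n = 5 each). Herpud1 was highest at 70.9 TPM, followed by Canx at 66.2, Hsp90b1 at 63.6, Hspa5 at 56.2 and Calr at 56 TPM. The ranges of these 5 over the libraries overlapped (60.5 to 86.2 TPM for Herpud1 and 50.2 to 69.9 TPM for Calr), so their order is not firm. Pdia3 followed at 23 TPM with a range of 20.8 to 29.4 TPM, below all of them. Atf6 (17.1 TPM), Atf4 (16.9 TPM) and Xbp1 (15.2 TPM), the branch factors, stood at like levels with overlapping ranges, and Atf6b (4.82 TPM, range 4.32 to 5.51) lay below Atf6 in every library. The sensor kinases were low, Ern1 at 3.49 TPM, Eif2ak4 at 2.5 TPM and Eif2ak3 at 2.27 TPM. At the foot stood Trib3 (1.15 TPM), Sdf2l1 (1.11 TPM), Sesn2 (1.1 TPM) and Asns (0.849 TPM).

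**Figure D4:**
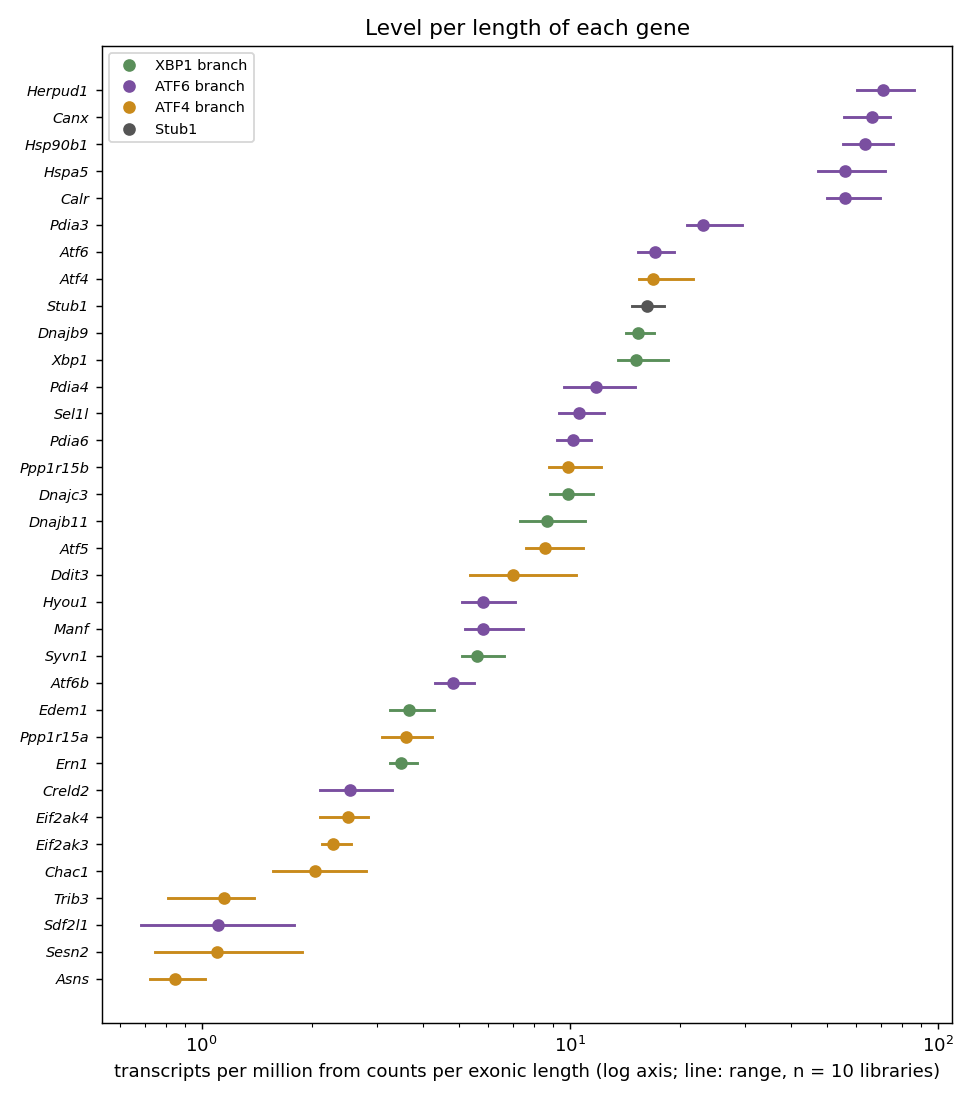
Level per exonic length in TPM (log axis) of the 34 genes in rows by mean, coloured by branch; points are means and lines the range over 10 libraries. ATF6 branch chaperones, Herpud1 and Canx lead at 56 to 70.9 TPM, and ATF4 targets such as Asns (0.849 TPM) lie lowest.

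The wider pathway lists gave few calls, 2 of them among ATF4 targets. ER translocation and signal peptide cleavage counted 0 higher and 0 lower of 18, with a median of 0.03 and Spcs3, a signal peptidase subunit, closest (0.12 ± 0.05, adjusted p = 0.133). ER redox and folding enzymes counted 0 higher and 0 lower of 13 (median 0.01), with Erp44, which retains client proteins in the early secretory pathway, closest (0.16 ± 0.06, adjusted p = 0.122). Sensor partners and eIF2 control counted 0 and 0 of 15 (median 0.04), with Wfs1, an ER membrane protein, closest (0.17 ± 0.06, adjusted p = 0.115). Aminoacyl-tRNA synthetases, many of them ATF4 targets, counted 0 and 0 of 13 (median -0.02), with Lars closest (0.18 ± 0.05, adjusted p = 0.0629). The transcripts known to be cut by IRE1 counted 0 and 0 of 6 (median 0.11), with Pmp22 closest (0.15 ± 0.08, adjusted p = 0.281).

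Of the 20 tested ATF4 targets outside the 34, 2 rose and 0 fell, with a median of 0.12. Slc38a2, a sodium-coupled amino acid transporter induced by amino acid lack, was at 195 ± 33.4 CPM in HFpEF and 141 ± 12.7 CPM in Control (SD, n = 5 each; log2 fold change 0.47 ± 0.10, adjusted p = 0.02). Its call ended without Control 3 (0.44, adjusted p = 0.0637). Vldlr, the very low density lipoprotein receptor, was at 341 ± 28.5 CPM in HFpEF and 275 ± 26.4 CPM in Control (0.31 ± 0.07, adjusted p = 0.0196), a call that ended without HFpEF 3 or Control 1 (adjusted p up to 0.0575). Both genes answer to other regulators as well, and the share called, 2 of 20, stands beside 3.24% of all genes called higher, with no test of the list made.

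Other gene groups that can move with tissue make-up or handling were read beside these. The circadian clock genes Ciart (-1.25 ± 0.09), Nr1d1 (-0.64 ± 0.09) and Dbp (-0.57 ± 0.07) fell, with adjusted p values of 0.00101 or below. They were 3 of the 15 clock genes listed, beside 2.09% of all genes called lower, with no test of the list made. The 16 heat shock genes, mostly of cytosolic chaperones, had 0 calls and a median of -0.04, with Hspd1, which encodes a chaperonin of mitochondria, closest (0.15 ± 0.06, adjusted p = 0.173), and summed to 2080 to 2790 CPM in HFpEF and 2220 to 3000 CPM in Control. Of 10 immediate early genes Btg2 rose (0.37 ± 0.08, adjusted p = 0.0112), beside 3.24% of all genes called higher. Of 6 endothelial markers 2 fell, Egfl7 (-0.30 ± 0.07, adjusted p = 0.0225) and Emcn (-0.27 ± 0.07, adjusted p = 0.0447), beside 2.09% of all genes called lower. Pecam1 (0.004), Kdr (-0.07), Cdh5 (-0.13) and Tie1 (-0.21) were not called. The endothelial list summed to 671 to 748 CPM in HFpEF and 727 to 863 CPM in Control. Neither this list nor the immediate early genes were tested as a set. Of 7 cardiomyocyte markers Tnnt2 fell (-0.22 ± 0.05, adjusted p = 0.0185), and the median of the list was -0.03. The others were not called, with Ryr2 (0.12 ± 0.05, adjusted p = 0.181), Actc1 (0.06) and Pln (0.04) above 0. Myh6 (-0.04), Tnni3 (-0.09) and Myl2 (-0.03) lay below 0. The calls of Egfl7 and Tnnt2 were each kept in 7 of the 10 fits without 1 library, and that of Emcn in 2. The part of these shifts in the levels of Atf6 and Canx was not tested.

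Markers of the other cell types gave 1 further call. Macrophage markers had 0 calls of 6 and summed to 73.4 to 95.3 CPM in HFpEF and 86.8 to 134 CPM in Control, with a median difference of -0.30. Fibroblast markers had 0 calls of 6 and summed to 457 to 499 CPM in HFpEF and 405 to 515 CPM in Control. Smooth muscle and pericyte markers had 0 calls of 5 and summed to 703 to 807 CPM in HFpEF and 649 to 756 CPM in Control. B cell and plasma cell markers had 3 of 6 tested with 0 calls and summed to 1.27 to 2.12 CPM in HFpEF and 1.33 to 2.26 CPM in Control. Erythroid markers had 0 calls of 5. Of the atrial markers Nppa fell (-1.19 ± 0.22, adjusted p = 0.0187), while Myl4 was not called (-0.11 ± 0.25, adjusted p = 0.853). Sln and Myl7, which mark atrial muscle, did not pass the filter on low counts.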

How the data were processed

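The authors deposited 1 table of estimated counts per gene for 10 total RNA libraries of left ventricle, depleted of ribosomal RNA. The values are whole numbers. Per the submitters' processing notes, Bowtie2 2.1.0 and RSEM 1.2.15 were used with the mm10 build, with no role stated for either tool. The sources used here state neither annotation release nor strand use. The 92 spike-in rows, all at 0, were left out.

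Genes passing edgeR's filter (minimum count 10) were scaled with TMM and tested with edgeR 4.0.16 quasi-likelihood fits (robust, R 4.3.3), HFpEF over Control without covariates, with Benjamini-Hochberg adjustment over 18491 genes. Positions, exonic lengths and transcripts came from GENCODE M21, promoters from RefSeq. TPM was computed from counts and exonic length. The 34 genes and the wider lists were chosen with earlier results of these data known. All 34 genes are named, and of each wider list its called genes, or else the gene with the smallest p. Some uncalled genes of these lists are named as well. Alternatives were other scalings (library totals alone among them) and filters, DESeq2 1.42.0, limma-voom (limma 3.58.1), a replicate block and leaving out libraries. In data simulated from these libraries, with 200 changed genes in each of 3 draws, 15.4% of genes changed by 1.2-fold, 56.2% by 1.5-fold and 77.8% by 2-fold were recovered, and 6.29% of calls were false. The changed genes were drawn at random from all genes tested, and they were fewer than the 985 called in the data. Recovery for the 34 genes themselves was therefore not measured. No 2 libraries of a group agreed within counting noise, so none was treated as a repeat deposit, which does not show that they are independent animals.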

Additional observations from a re-analysis of the deposited data

Results flagged for a closer look

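In 5 of the 68 gene and group combinations checked, 1 library stood apart, with a gap to its nearest neighbour above 0.71 of the range of its group of 5, which chance gives in about 1 of 20 groups. Pdia4 was lowest in HFpEF 5 at 16.3 CPM, with the next library at 19 CPM. Sdf2l1 was highest in HFpEF 2 at 1.28 CPM, with the next at 0.68 CPM. Atf5 was lowest in HFpEF 1 at 9.95 CPM, with the next at 12 CPM. Atf5 was also highest in Control 5 at 12.7 CPM, with the next at 10.8 CPM. Atf4 was highest in Control 5 at 30 CPM, with the next at 24.7 CPM.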

How the results depend on the processing

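Atf6 was called under every alternative run, with log2 fold changes from 0.24 to 0.37. Leaving out 1 library at a time gave 352 to 684 genes higher and 202 to 417 lower over all genes, 1 to 3 of the 34 higher, 1 to 2 in the ATF6 branch and 0 to 1 in the ATF4 branch. DESeq2 called 926 genes higher. Without Control 4 and Control 5 together, chosen after seeing the data, 1 of the 34 was higher, the ATF6 branch gene Atf6, and Canx was not called (adjusted p = 0.0665). With library totals alone, also chosen after seeing the data, 246 genes were higher and 1277 lower, 1 of the 34 was higher (Atf6, so 1 in the ATF6 branch) and 1 lower (Sesn2, so 1 in the ATF4 branch), and the median of all genes was -0.11. Signs turned in that fit for Xbp1 (-0.049), Dnajb9 (-0.008), Edem1 (-0.09), Syvn1 (-0.091), Hsp90b1 (-0.085), Calr (-0.063), Pdia3 (-0.084), Sel1l (-0.064), Creld2 (-0.083), Hyou1 (-0.042), Eif2ak3 (-0.011), Eif2ak4 (-0.02), Atf5 (-0.008), Ppp1r15b (-0.056) and Stub1 (-0.068), all short of a call. Signs near 0 also turned elsewhere: Edem1 was -0.002 and Syvn1 0 under upper quartile scaling, and without Control 4 and 5 Pdia4 was 0.034 and Ddit3 0.055. Without 1 library, Edem1 ran from -0.003 to 0.037, Syvn1 from -0.008 to 0.039, Hsp90b1 from -0.01 to 0.047, Pdia3 from -0.011 to 0.08, Pdia4 from -0.046 to 0.037, Manf from -0.061 to 0.042, Creld2 from -0.04 to 0.097 and Ddit3 from -0.124 to 0.084. The cause was not tested. Same-numbered libraries showed little common deviation (correlations -0.154 to 0.125), though HFpEF 4 and Control 4 were each other's best match. So few correlations cannot exclude that the numbers pair libraries or mark a shared batch. With the replicate block, 444 genes were higher and 300 lower, and 2 of the 34 were higher, Atf6 and Herpud1 (adjusted p = 0.0373), with Canx at an adjusted p of 0.126. Sdf2l1, Sesn2, Chac1, Trib3 and Asns had the widest intervals, with as few as 16 counts in a library for Sdf2l1, and the part of depth in them was not tested.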
